A study of Mus musculus with 9 samples.

Results

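The Polycomb subunits described here are 10 genes: Ezh2, Ezh1, Eed, Suz12, Jarid2 and Mtf2 of Polycomb repressive complex 2 (PRC2), and Rnf2, Ring1, Pcgf1 and Pcgf6 of PRC1. They were chosen by name from what their proteins do, and all 10 were found by symbol among the 16636 genes of the count table and among the 14246 genes tested. RNA was sequenced from the wildtype mouse embryonic stem cell line E14, grown on fibronectin in the naive state with a MEK inhibitor, a GSK3 inhibitor and LIF. The 3 groups were untreated cells, cells given the control siRNA against luciferase (siLuc) and cells given siRNA to Stag3 (siStag3), a cohesin subunit gene, with 3 biological replicates each. Both siRNAs were applied for 48 hours, with 50 pmol at seeding and the same amount again on the following day. Each group held 2 libraries of Set 1 (experiments 1 and 3) and 1 library of Set 3 (experiment 5, or experiment 1 in siLuc), as the column names call them. What a set or an experiment is was not given in the sources used here. All groups come from the same cell line, and knockdown by siRNA leaves part of the transcript in place.

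PRC2 places the methyl groups of the H3K27me3 mark on histone H3. EZH2 or its paralog EZH1 is the catalytic subunit, EED and SUZ12 complete the core, and JARID2 and MTF2 are accessory subunits that help the complex bind chromatin. PRC1 attaches ubiquitin to histone H2A through RNF2 (also called RING1B) or RING1, each paired with a PCGF protein that defines the form of the complex. PCGF1 and PCGF6 belong to variant forms that can bind without H3K27me3, and in embryonic stem cells both complexes are known for keeping developmental genes silent.

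The coding sequences of 6 subunits are shown in part because the differences between libraries, described further on, followed the base composition of the transcripts. Each is the middle 120 coding bases of the longest protein-coding transcript in GENCODE M21 (GRCm38), all in coding exons, read 5′ to 3′ with G and C in capitals. The genes lie on chromosome 5 (Mtf2), 11 (Suz12 and Ezh1), 1 (Rnf2), 17 (Ring1) and 6 (Ezh2).
Mtf2: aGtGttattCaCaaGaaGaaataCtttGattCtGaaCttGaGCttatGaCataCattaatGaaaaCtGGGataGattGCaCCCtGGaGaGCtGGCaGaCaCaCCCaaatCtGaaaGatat
Suz12: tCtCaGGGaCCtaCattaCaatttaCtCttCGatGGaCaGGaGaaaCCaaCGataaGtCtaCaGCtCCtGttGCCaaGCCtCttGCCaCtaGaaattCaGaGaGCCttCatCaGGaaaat
Rnf2: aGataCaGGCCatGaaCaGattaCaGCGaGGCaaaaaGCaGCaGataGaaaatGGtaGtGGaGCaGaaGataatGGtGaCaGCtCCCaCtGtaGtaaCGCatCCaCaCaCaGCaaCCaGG
Ring1: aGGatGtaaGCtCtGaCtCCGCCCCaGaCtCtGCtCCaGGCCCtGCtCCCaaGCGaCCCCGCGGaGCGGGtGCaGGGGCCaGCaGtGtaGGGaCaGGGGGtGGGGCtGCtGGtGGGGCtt
Ezh2: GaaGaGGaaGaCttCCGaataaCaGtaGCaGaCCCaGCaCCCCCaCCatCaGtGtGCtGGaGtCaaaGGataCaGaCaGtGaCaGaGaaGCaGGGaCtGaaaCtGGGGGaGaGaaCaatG
Ezh1: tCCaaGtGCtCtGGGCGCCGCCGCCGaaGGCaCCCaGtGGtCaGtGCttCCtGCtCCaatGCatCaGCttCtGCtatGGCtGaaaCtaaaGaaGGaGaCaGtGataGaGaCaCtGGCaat
G and C made up 37.5% of the window of Mtf2 and 69.2% of that of Ring1. Within the paralog pairs, the Rnf2 window had 47.5% against 69.2% for Ring1, and the Ezh2 window had 51.7% against 55.0% for Ezh1. Over whole transcripts, GC content rose from 38.2% in Mtf2, 39.5% in Rnf2 and 41.6% in Suz12 through 44.4% in Ezh2, 46.5% in Pcgf6, 47.8% in Eed and 49.1% in Jarid2. It was 50.9% in Pcgf1, 51.2% in Ezh1 and 60.7% in Ring1. The 3′ untranslated regions of Mtf2, Rnf2 and Suz12 held 31.7%, 34.3% and 36.3% G and C, below their coding parts at 42.8%, 45.1% and 43.7%.

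Total counts ran from 29332436 to 44527534 per library, and every member had at least 183 counts in each library. Levels are given as CPM, in which each count is taken relative to the total of its library scaled by a TMM factor, which evens out differences in composition. By the unscaled totals, 3 counts stood for 0.0674 to 0.102 CPM. Stag3 itself stood at 24.1, 24.3 and 28.6 CPM in untreated cells, 22.5, 23.3 and 26.7 CPM in siLuc and 13.5, 15.2 and 15.6 CPM in siStag3. The siStag3 libraries were all below the others, and the log2 fold change against siLuc was -0.71 (SE 0.0722, adjusted p = 0.00205, edgeR with set as a covariate). That call was lost without the set covariate (adjusted p = 0.605) and without the siStag3 library of Set 1 experiment 1 (-0.67, adjusted p = 0.0582). Summed naive stem cell markers, all 10 in the table, came to 4934 to 5220 CPM in untreated, 4788 to 5141 in siLuc and 4873 to 5224 in siStag3. The sum does not show Dppa3, 1 of these markers, which averaged 44.0, 34.7 and 24.2 CPM in the same groups. It was the only 1 of the 10 called in siStag3 against untreated cells (log2 fold change -0.86, adjusted p = 0.000781, edgeR), and 0 passed in siStag3 against siLuc. Summed markers of fibroblasts reached at most 5.25 CPM in a library, those of primitive endoderm 3.81 and those of the two-cell-like state 0.819. Neural markers (3 of 4 in the table) summed to 104 to 121 CPM in untreated, 106 to 114 in siLuc and 114 to 137 in siStag3. Pax6, 1 of these markers, averaged 2.39, 3.60 and 3.11 CPM in the same groups. Early mesoderm markers (3 of 4 in the table) summed to 7.38 to 8.52 CPM in untreated, 4.90 to 7.51 in siLuc and 4.88 to 5.64 in siStag3. In these bulk libraries, fewer cells of a type and less RNA per cell cannot be told apart.

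Transcript levels of the subunits, per length, spanned a wide range. As CPM per kilobase of the longest coding transcript, averaged over all 9 libraries, Eed was highest at 130 ± 9.46 (SD, n = 9), followed by Suz12 at 101 ± 16.0, Mtf2 at 101 ± 16.7 and Ezh2 at 74.9 ± 7.28. Jarid2 at 43.4 ± 4.95, Rnf2 at 41.5 ± 7.12 and Pcgf6 at 40.1 ± 1.96 formed a middle group. Ezh1 at 8.60 ± 0.592, Pcgf1 at 7.50 ± 1.09 and Ring1 at 3.39 ± 0.344 were lowest. Neighbours in this order overlapped across libraries, except that every Ezh2 value was above every Jarid2 value, every Pcgf6 value above every Ezh1 value and every Pcgf1 value above every Ring1 value.

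**Figure D1:**
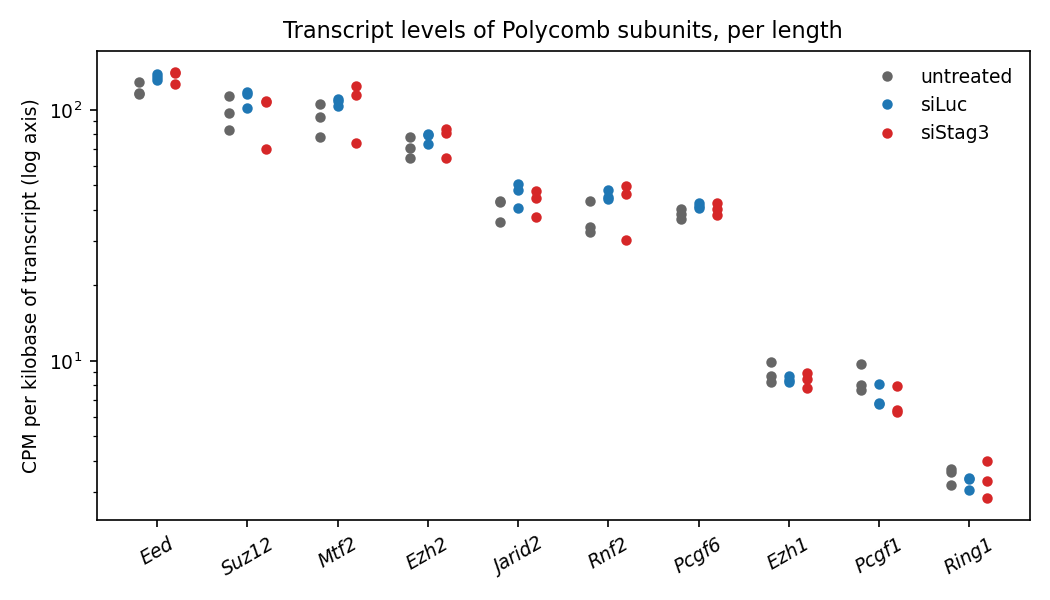
Level of each subunit in CPM per kilobase of transcript on a log axis, 1 point per library, coloured by group (3 libraries each). Eed, Suz12, Mtf2 and Ezh2 lie above Jarid2, Rnf2 and Pcgf6, and Ezh1, Pcgf1 and Ring1 lie lowest.

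In both catalytic pairs 1 paralog held most of the transcripts by per-length level, which was not corrected for GC content. That content was 44.4% in Ezh2 against 51.2% in Ezh1, and 39.5% in Rnf2 against 60.7% in Ring1. Its part in the paralog levels was not tested. The per-length level of Ezh2, the methyltransferase of dividing cells, was 8.79 ± 1.34 times that of Ezh1 (SD, n = 9), with a range of 6.52 to 10.8. The ratio was 8.03 ± 1.46 in untreated, 9.19 ± 0.521 in siLuc and 9.15 ± 1.85 in siStag3 (SD, n = 3 each), and these ranges overlapped. Rnf2 exceeded Ring1, the other ubiquitin ligase of PRC1, by 12.5 ± 3.06 times (n = 9), with a lowest ratio of 7.65 and a highest of 17.5, both in siStag3 libraries. Pcgf6 exceeded Pcgf1 by 5.46 ± 0.918 times (n = 9). All 3 ratios had lower means in Set 3 than in Set 1: 7.44 against 9.46 for Ezh2 to Ezh1, 9.81 against 13.8 for Rnf2 to Ring1 and 4.64 against 5.87 for Pcgf6 to Pcgf1. The range of each pair over the Set 3 libraries overlapped that over the Set 1 libraries. The paralogs shared no sequence of 31 bases with each other, so reads of that length or longer separate them.

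Knockdown of Stag3 was compared with siLuc first, since both groups were transfected. Of the Polycomb subunits, 0 of 10 passed the edgeR threshold (adjusted p under 0.05), where 4 of the 14246 genes tested, or 0.0281%, did. At an unadjusted p under 0.05 the count was 1 of 10, Suz12, against 7.88% of all genes, and the DESeq2 Wald test also called 0. The CPM of siStag3 and siLuc overlapped for all 10 members, while 6.59% of all genes had no overlap. The log2 fold changes ran from -0.26 to 0.03, and 2 of 10 were above 0, where 48.3% of all genes were. Their median was -0.06, against -0.0048 over all genes tested. As a description of the same libraries, Spearman's rho of these differences with GC content was 0.648 across the 10 members. It was 0.385 across 14226 genes, and -0.321 across the members after a correction for GC content.

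Among the PRC2 core genes, Ezh2 stood at 197, 216 and 179 CPM in untreated cells, 222, 224 and 203 in siLuc and 234, 225 and 179 in siStag3, in the order Set 1 experiment 1, Set 1 experiment 3 and Set 3, which is kept for all members below. In each group the Set 3 library was the lowest. The log2 fold change of siStag3 against siLuc was -0.03 (95% interval -0.16 to 0.10, adjusted p = 0.900). Ezh1 stood at 36.5, 34.6 and 41.5 CPM in untreated cells, 34.5, 36.8 and 35.3 in siLuc and 32.7, 35.7 and 37.8 in siStag3. Its groups overlapped throughout, with a log2 fold change of -0.01 (-0.16 to 0.14, adjusted p = 0.976). Eed, whose protein reads the H3K27me3 mark, stood at 241, 267 and 239 CPM in untreated cells, 286, 272 and 279 in siLuc and 292, 289 and 261 in siStag3. Its log2 fold change against siLuc was 0.01 (-0.12 to 0.13, adjusted p = 0.981), although all 3 siLuc values lay above all 3 untreated values.

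Suz12, the scaffold of PRC2, had the widest difference of the 10 between siStag3 and siLuc. It stood at 424, 495 and 362 CPM in untreated cells, 508, 514 and 444 in siLuc and 468, 473 and 305 in siStag3. The siStag3 library of Set 3 was the lowest of all 9, and the siStag3 libraries of Set 1 lay below both siLuc libraries of Set 1. The log2 fold change was -0.26 (SE 0.0814, 95% interval -0.43 to -0.08), which did not pass the test (adjusted p = 0.446). It was -0.12 within Set 1 and -0.54 within Set 3, and -0.14 when the siStag3 library of Set 3 was left out (adjusted p = 0.961). With a correction for GC content it was -0.18 (adjusted p = 0.0824).

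Among the accessory subunits, Jarid2, which helps recruit PRC2, stood at 260, 257 and 214 CPM in untreated cells, 286, 303 and 243 in siLuc and 286, 267 and 224 in siStag3. The Set 3 library was the lowest of its group every time, and the log2 fold change of siStag3 against siLuc was -0.10 (-0.21 to 0.01, adjusted p = 0.661). Mtf2, a Polycomb-like protein that binds unmethylated CpG-rich DNA, stood at 380, 429 and 316 CPM in untreated cells, 450, 439 and 419 in siLuc and 464, 503 and 299 in siStag3. The 2 highest values and the lowest value of Mtf2 were all in siStag3, and the log2 fold change of -0.08 (-0.32 to 0.16, adjusted p = 0.860) averages 0.12 within Set 1 and -0.49 within Set 3.

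Of the PRC1 ligases, Rnf2 stood at 109, 138 and 105 CPM in untreated cells, 154, 144 and 141 in siLuc and 148, 159 and 97.3 in siStag3. It also had both its highest and its lowest value in siStag3, and the log2 fold change against siLuc was -0.14 (-0.42 to 0.14, adjusted p = 0.780). Ring1 stood at 6.51, 7.33 and 7.56 CPM in untreated cells, 6.94, 6.24 and 6.90 in siLuc and 6.77, 5.77 and 8.09 in siStag3. These values rest on 183 to 349 counts per library, and the log2 fold change was 0.03 (-0.21 to 0.28, adjusted p = 0.944). Here the Set 3 library was the highest in untreated and in siStag3 cells, the opposite of Rnf2.

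Of the PCGF genes, Pcgf1 stood at 7.01, 7.33 and 8.88 CPM in untreated cells, 6.21, 6.21 and 7.43 in siLuc and 5.76, 5.83 and 7.26 in siStag3. The Set 3 library was the highest of each group, and the log2 fold change of siStag3 against siLuc was -0.08 (-0.28 to 0.13, adjusted p = 0.846). Pcgf1 is uncertain, since 23.1% of its 31-base sequences also occur in the pseudogene Gm8930, which is not listed in the table. Pcgf6 stood at 79.4, 86.7 and 83.2 CPM in untreated cells, 92.3, 87.5 and 89.2 in siLuc and 91.5, 86.7 and 82.5 in siStag3. It varied least of the 10, with a coefficient of variation of 4.90% over all 9 libraries against 17.2% for Rnf2, and its log2 fold change was -0.05 (-0.17 to 0.08, adjusted p = 0.853).

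**Figure D2:**
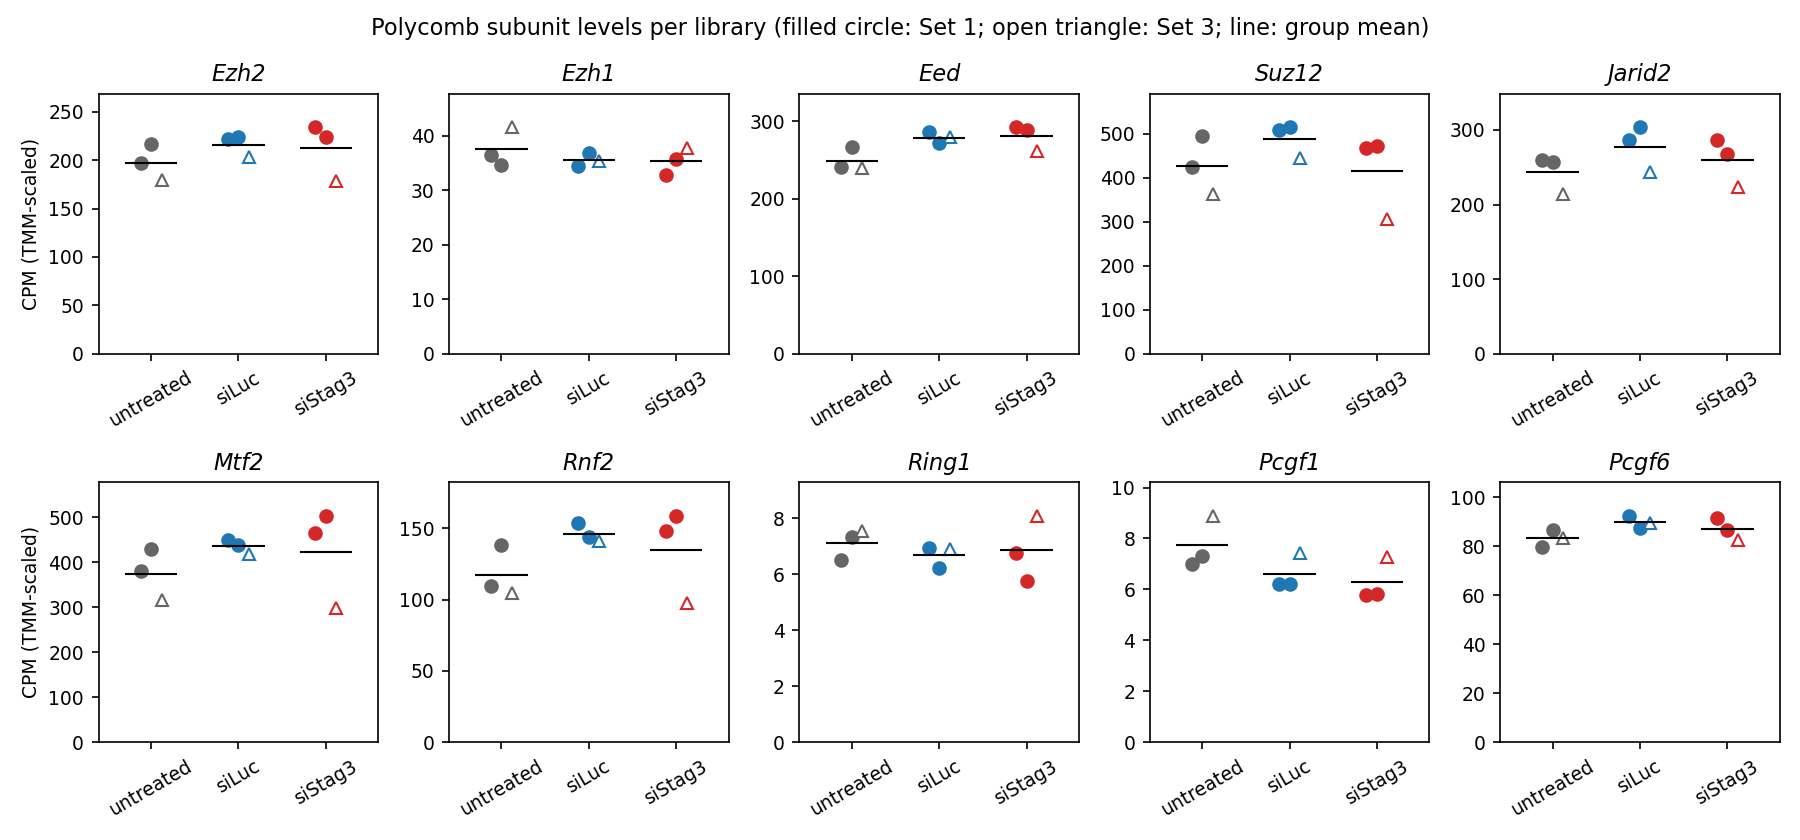
CPM of each subunit in each library, scaled by TMM factors, with filled circles for Set 1, open triangles for Set 3 and a line at the group mean (3 libraries). The Set 3 triangle is lowest in every group for Ezh2, Suz12, Jarid2, Mtf2 and Rnf2 and highest in every group for Pcgf1.

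For Ezh2, Ezh1, Eed, Jarid2 and Pcgf6 the 95% intervals of the difference between siStag3 and siLuc stayed between -0.21 and 0.14 on the log2 scale. For Rnf2 the interval reached from -0.42 to 0.14, for Mtf2 from -0.32 to 0.16 and for Suz12 from -0.43 to -0.08.

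Cells given siLuc were then compared with untreated cells. In Set 3 transfection and experiment cannot be told apart here, since siLuc is of experiment 1 and untreated of experiment 5. Again 0 of 10 members passed the edgeR threshold, against 598 genes, which is 4.20% of those tested. At an unadjusted p under 0.05 the count was 6 of 10, with Eed, Ezh2, Jarid2, Rnf2 and Suz12 higher in siLuc and Pcgf1 lower, against 27.8% of all genes (13.4% higher and 14.4% lower). The closest to the threshold was Jarid2, with a log2 fold change of 0.19 (SE 0.0530, adjusted p = 0.0587) and the same size in both sets, 0.19 in each. Rnf2 had the widest difference at 0.32 (SE 0.123, adjusted p = 0.133), and Suz12 was at 0.20 (adjusted p = 0.132), Mtf2 at 0.23 (adjusted p = 0.184) and Eed at 0.17 (adjusted p = 0.0993). Pcgf1 was at -0.22 (adjusted p = 0.137). The median of the 10 was 0.15, against -0.0024 over all genes. Eed, Pcgf6 and Rnf2 had no overlap between siLuc and untreated libraries, as did 19.9% of all genes.

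Some of these differences crossed the threshold in other fits. The DESeq2 Wald test called Jarid2 (0.19, adjusted p = 0.0247) and Rnf2 (0.32, adjusted p = 0.0306), 2 of 10, where 11.9% of the genes it gave an adjusted p were called. A fit of only the 6 libraries compared called Jarid2, Rnf2 and Mtf2, 3 of 10, where 12.8% of all genes were called. These differences, too, went with GC content: Spearman's rho was -0.842 across the 10 members and -0.495 across 14226 genes, as a description of the same libraries. With a correction for GC content Jarid2 alone passed (0.17, adjusted p = 0.0200, 6.96% of genes called). Rnf2 then went to 0.13 (adjusted p = 0.132), Ezh2 from 0.13 to 0.02, Mtf2 to -0.01 and Suz12 to 0.04. Without the siStag3 library of Set 3, which is in neither group but shares the estimate of spread, 5 of 10 passed: Eed, Suz12, Jarid2, Mtf2 and Rnf2, all higher in siLuc. In that fit 8.39% of all genes were called higher. An edgeR fit with set and experiment as a block was chosen after seeing the data. It put Rnf2 at 0.20 (adjusted p = 0.441) and Jarid2 at 0.18 (adjusted p = 0.272). Mtf2 was then at 0.08, Suz12 at 0.11, Eed at 0.13 and Pcgf1 at -0.21.

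Cells given siStag3 were also set against untreated cells, a comparison that shares libraries with both others. No member of 10 passed the edgeR threshold, against 361 genes, or 2.53%, and 2 of 10 had an unadjusted p under 0.05, against 17.0%. These were Pcgf1, at -0.30 (SE 0.0926, adjusted p = 0.110), and Eed, at 0.17 (SE 0.0584, adjusted p = 0.147). DESeq2 called 0. The values of siLuc and of siStag3 against untreated were, side by side, -0.22 and -0.30 for Pcgf1, 0.17 and 0.17 for Eed, 0.19 and 0.09 for Jarid2 and 0.20 and -0.06 for Suz12. With the GC correction Eed passed (0.15, adjusted p = 0.0370, 6.75% of genes called), and within Set 1 alone Mtf2 passed (0.26, adjusted p = 0.0469, 6.62% of genes called). Without the siStag3 library of Set 3, Eed (0.21), Mtf2 (0.31) and Rnf2 (0.34) passed, while 5.52% of all genes were called higher.

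**Figure D3:**
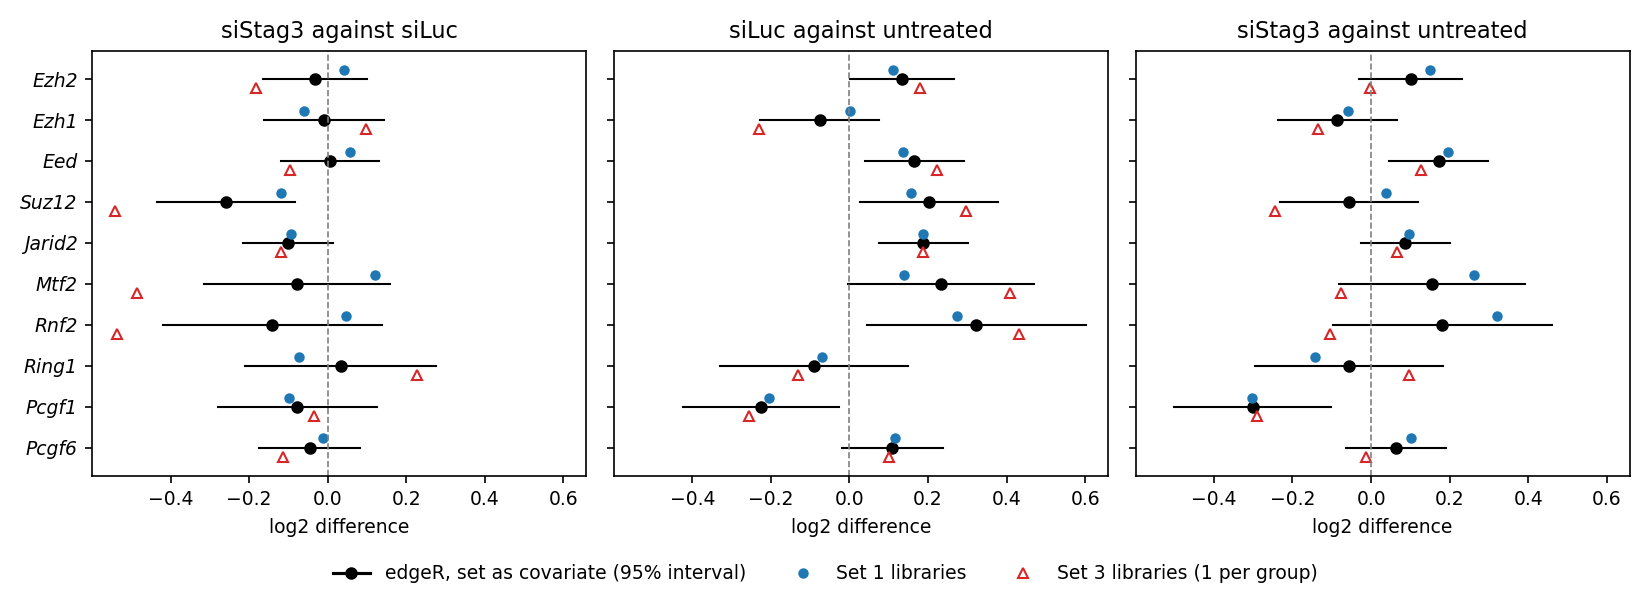
Log2 difference of each subunit in the 3 comparisons: black points with 95% intervals from edgeR with set as a covariate, blue circles for the Set 1 libraries and red triangles for the Set 3 libraries (1 per group). For Suz12, Mtf2 and Rnf2 in siStag3 against siLuc the Set 3 triangles lie at -0.54, -0.49 and -0.54, away from the Set 1 circles at -0.12, 0.12 and 0.05.

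The largest number of members passed between the sets. In Set 3 against Set 1, with the group in the model, 6 of 10 members passed the edgeR threshold, where 42.7% of all genes did (21.4% higher and 21.2% lower in Set 3). Suz12 was lower in Set 3 by a log2 fold change of -0.39 (SE 0.0716, adjusted p = 0.000979), Mtf2 by -0.37 (SE 0.0938, adjusted p = 0.00984) and Rnf2 by -0.32 (SE 0.108, adjusted p = 0.0411). Jarid2 was lower by -0.29 (SE 0.0464, adjusted p = 0.000347) and Ezh2 by -0.23 (SE 0.0538, adjusted p = 0.00382). Pcgf1 was higher, at 0.30 (SE 0.0792, adjusted p = 0.00852). Only Jarid2 had no overlap between the 3 Set 3 and the 6 Set 1 libraries, as did 26.2% of all genes. Ezh1 (0.12), Ring1 (0.19), Eed (-0.08) and Pcgf6 (-0.04) did not pass. The call of Rnf2 did not hold in 6 of the 9 fits that left out 1 library. In these fits Rnf2 ran from -0.44 to -0.16, Mtf2 from -0.52 to -0.22, Suz12 from -0.48 to -0.27 and Ezh2 from -0.28 to -0.17, each lowest without the siLuc library of Set 3 and closest to 0 without the siStag3 library of Set 3.

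These differences followed the GC content of the transcripts. Across the 10 members, Spearman's rho between the Set 3 against Set 1 difference and GC content was 0.842, and across 14226 genes it was 0.492. The points come from the same 9 libraries and members are not independent, so the values are descriptions. After a correction that subtracts, in each library, the median deviation of genes in 20 bins of GC content, Mtf2 went from -0.37 to -0.05 (adjusted p = 0.280) and Rnf2 from -0.32 to -0.06 (adjusted p = 0.328). Suz12 stayed lower at -0.18 (adjusted p = 0.000826), Ezh2 at -0.09 (adjusted p = 0.0473), and Pcgf1 stayed higher at 0.28 (adjusted p = 0.00815), with 41.5% of genes called. Jarid2 scarcely moved, from -0.29 to -0.27 (adjusted p = 1.03e-05). The correction moved Ring1, the member richest in G and C, from 0.19 to -0.08.

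The difference between siStag3 and siLuc was also compared between the 2 sets. A fit with a group by set interaction, which leaves 3 residual degrees of freedom, called 160 genes, or 1.12%, and 1 of 10 members. Mtf2 differed by -0.61 between Set 3 and Set 1 (SE 0.118, adjusted p = 0.0476). Rnf2 at -0.58 (SE 0.169, adjusted p = 0.0992) and Suz12 at -0.42 (SE 0.121, adjusted p = 0.0902) did not pass, and Ring1 was at 0.30 (adjusted p = 0.481). Over the 10 members, Spearman's rho of this quantity with GC content was 0.988, against 0.630 over 14226 genes. With the GC correction Mtf2 was at -0.04 (SE 0.0882, adjusted p = 0.944), Rnf2 at -0.17, Suz12 at -0.13 and Ring1 at -0.06, and 18 genes were called. In Set 3 this comparison rests on 1 library per group. The SE and p-values of the interaction fit therefore come from the spread within Set 1 and hold no replicate spread of Set 3. The comparison also crosses experiments in Set 3, siStag3 being of experiment 5 and siLuc of experiment 1. In Set 1 both groups come from the same experiments. The set, the experiment and the single siStag3 library of Set 3 cannot be told apart here. Both libraries of experiment 5, untreated and siStag3, lay below the siLuc library of Set 3 for Mtf2 (316 and 299 against 419 CPM), Suz12 (362 and 305 against 444) and Rnf2 (105 and 97.3 against 141). They also had the lowest mitochondrial shares of all 9 libraries, 3.48% in untreated and 4.10% in siStag3. In the other libraries this share was 4.41% and 5.33% in untreated, 6.73%, 6.08% and 5.98% in siLuc and 6.60% and 6.78% in siStag3. Its part in the result was not tested.

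**Figure D4:**
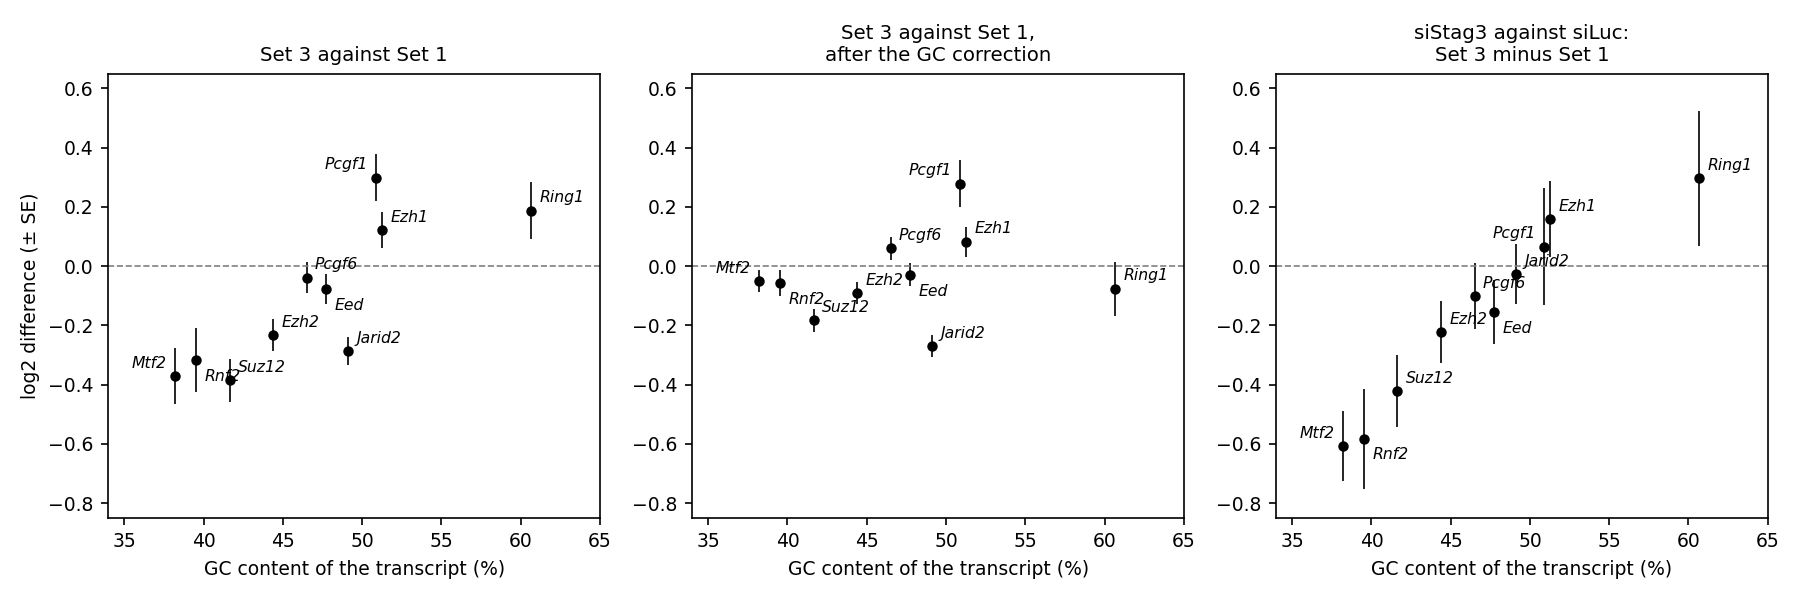
Log2 difference (± SE) of each subunit against the GC content of its transcript: Set 3 against Set 1 as fitted, the same after the GC correction, and the Set 3 minus Set 1 difference of siStag3 against siLuc. In the last panel the subunits run from Mtf2 at -0.61 and 38.2% GC to Ring1 at 0.30 and 60.7% GC.

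Genes whose profile over the 9 libraries was most like that of a catalytic subunit were named by the root mean square difference of log2 CPM after centring. For Ezh2 these were Rad21 (0.0186), Hspa4 (0.0257) and Twf1 (0.0260), against a median of 0.230 over all genes. For Rnf2 they were Cip2a (0.0309), Ccnc (0.0328) and Srsf1 (0.0346), against 0.314. For Ezh1 they were Bcas3 (0.0298), B4galt1 (0.0370) and Hdac3 (0.0372), against 0.198. The GC contents of their transcripts, in the same order, were 44.3%, 46.6% and 43.9% beside 44.4% in Ezh2. They were 37.8%, 35.5% and 40.6% beside 39.5% in Rnf2, and 52.8%, 50.6% and 50.2% beside 51.2% in Ezh1.

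The other genes of the Polycomb system were read from lists. These held 8 other PRC2 genes (such as Aebp2, Phf1, Phf19 and Epop) and 31 other PRC1 genes (such as Bmi1, Cbx7, Kdm2b and Mga). The last list held 9 genes of opposing enzymes or of PR-DUB, the complex of the deubiquitinase Bap1. Among them were Bap1 and the demethylases Kdm6a and Kdm6b. Of the genes of these 3 lists, 0 passed in siStag3 against siLuc, where 0.0281% of all genes did. At an unadjusted p under 0.05 there were 1, 2 and 0 in the order of the lists, against 7.88% of all genes. Their medians were 0.03, 0.03 and -0.07, against -0.0048 over all genes. In siLuc against untreated cells 1 of these genes passed, against 4.20% of all genes. It was Phf1, a Polycomb-like paralog of Mtf2, which fell from 7.82 ± 1.81 to 5.41 ± 2.16 CPM (SD, n = 3 each), a log2 fold change of -0.56 (adjusted p = 0.0219). This call was lost with the GC correction (-0.35, adjusted p = 0.0729) and in 3 of the 9 fits that left out 1 library. In siStag3 against untreated cells 0 of the 3 lists' genes passed, against 2.53% of all genes. At an unadjusted p under 0.05 they numbered 1, 5 and 1, against 17.0% of all genes.

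Genes that Polycomb is known to silence were measured as well. Of 67 developmental targets (HOX, GATA, PAX and similar regulators), 51 were in the table and 30 were tested, the others being too low in these cells. In siStag3 against siLuc 0 of 30 passed, with 1 at an unadjusted p under 0.05, against 7.88% of all genes, and the median was -0.07. In siLuc against untreated cells 1 of 30 rose and 1 fell, against 1.65% and 2.55% of all genes. The one that rose was Pax6, a neural regulator, from 2.39 ± 0.192 to 3.60 ± 0.271 CPM (log2 fold change 0.59, adjusted p = 0.0316). In siStag3 against untreated cells 4 of 30 fell, against 1.46% of all genes, among them the mesoderm regulator T (-1.06, adjusted p = 0.0294), the trophectoderm and hindgut regulator Cdx2 (-1.11, adjusted p = 0.0379) and Hoxb9 (-0.37, adjusted p = 0.0394). Of the 9 fits that left out 1 library, the call of Pax6 in siLuc was lost in 6, and those of T, Cdx2 and Hoxb9 in siStag3 in 5, 5 and 7, with no change of sign. T, also 1 of the early mesoderm markers, stood at 4.81 ± 1.24 CPM in untreated, 2.86 ± 1.51 in siLuc and 2.35 ± 0.919 in siStag3. Eomes, on the same 2 lists, did not fall with it: it stood at 2.50 ± 0.491, 3.32 ± 0.579 and 2.66 ± 0.726 CPM. In the same groups Cdx2 stood at 1.40 ± 0.543, 0.905 ± 0.0746 and 0.646 ± 0.194 CPM. Hoxb9 stood at 11.8 ± 3.03, 10.1 ± 2.20 and 9.17 ± 2.69 CPM. For T, Cdx2 and Hoxb9 the siLuc mean was thus also below the untreated mean, and siStag3 against siLuc did not pass.

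Germline genes bound by the PCGF6 form of PRC1 were also measured. All 15 were tested, and 0 passed in siStag3 against siLuc, with a median of -0.22. At an unadjusted p under 0.05 there were 2, against 7.88% of all genes. In siLuc against untreated cells 2 of 15 rose and 1 fell, against 1.65% and 2.55% of all genes. The RNA helicase Ddx4 rose from 2.70 ± 0.428 to 4.58 ± 0.896 CPM (0.75, adjusted p = 0.0128) and Taf7l rose (0.72, adjusted p = 0.0352). Stra8, a gene of meiotic entry, fell from 15.3 ± 1.43 to 10.3 ± 2.38 CPM (-0.60, adjusted p = 0.0118). In siStag3 against untreated cells 2 of 15 passed, against 2.53% of all genes: Stra8 fell (-0.82, adjusted p = 0.00156) and Ddx4 rose (0.58, adjusted p = 0.0466). Leaving out 1 library ended the calls of Stra8, Ddx4 and Taf7l in siLuc in 2, 2 and 7 of 9 fits, that of Ddx4 in siStag3 in 7 and that of Stra8 in siStag3 in 0. In Set 3 against Set 1, 13 of 15 were lower and 0 higher, against 21.2% of all genes lower, with a median of -0.65. Smc1b, the meiotic cohesin subunit, was at -1.37 (adjusted p = 1.64e-07), Stk31 at -1.43 (adjusted p = 7.94e-07), Mov10l1 at -0.81 (adjusted p = 0.00021) and Dazl at -1.29 (adjusted p = 0.00022). Pcgf6 itself was at -0.04 in the same comparison. With the GC correction 12 of the 15 germline genes passed there, where 41.5% of all genes did. Without it, 3 of 8 other PRC2 genes were higher in Set 3 and 2 lower. Of 31 other PRC1 genes 7 were higher and 8 lower, and of the 9 genes of opposing enzymes or PR-DUB 1 and 3. Of the 30 developmental targets 3 were higher and 6 lower. Over all genes 21.4% were higher and 21.2% lower in Set 3. Without the set covariate none of the genes of these lists passed in any of the 3 treatment comparisons.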

How the data were processed

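The authors deposited 1 table of counts per gene with 9 library columns. Per the submitters' processing notes, FastQC, Salmon, DESeq2 and GRCm39 were used. The annotation release and strand setting are not given in the sources used here, and whole numbers may be rounded estimates. Rows without a symbol numbered 8, and every column matched a group. Genes were tested with edgeR 4.0.16 in R 4.3.3: 1 quasi-likelihood fit of 9 libraries with group and set, TMM factors, filterByExpr, robust dispersion, two-sided Benjamini-Hochberg adjusted p under 0.05 over 14246 genes. The coefficient of biological variation was 7.62% with the set and 14.6% without. Lengths, GC content and shared 31-base sequences came from GENCODE M21 (GRCm38), which matched 16604 gene IDs. The alternatives were no set, a GC correction, Set 1 only, 6 libraries, each library left out, DESeq2 1.42.0 (size factors and test), total count only, a non-robust fit, no filter and a filter at a mean of 50 counts. The interaction fit, the block on set and experiment, and the GC correction without 1 library were added later. Tests were tried on simulated data. Members and lists were chosen with earlier results of these data known. All members and at most 4 called genes per list, by smallest p, are named, except 1 called developmental gene that is counted but not reported here by name, and the germline genes of the set comparison were named after their values were seen. Floors of 3 counts cover counting error only. Antisense genes overlap Mtf2 (Tmed5) and Rnf2 (Trmt1l), sharing 6.07% and 3.06% of 31-base sequences, and Ezh2, Eed and Suz12 overlap noncoding genes; without a stated strand setting such reads cannot be told apart.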

Additional observations from a re-analysis of the deposited data

Results flagged for a closer look

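The log2 difference of Mtf2 between siStag3 and siLuc was 0.12 in Set 1 and -0.49 in Set 3, and the size of this gap drew attention to it. The difference between these, tested as a group by set interaction, was -0.61 (SE 0.118, adjusted p = 0.0476, edgeR). Set 3 holds 1 library per group, of experiment 5 in siStag3 and experiment 1 in siLuc. The SE and p-value therefore hold no replicate spread of Set 3. With the GC correction the value was -0.04.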

How the results depend on the processing

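Of 800 log2 fold changes of members under alternatives, 728 kept their direction and their side of the threshold, 11 lost and 19 gained a call, and 42 changed sign. Each value was counted once, so one that changed sign is not among the lost calls. In the 3 treatment comparisons 0 of 10 members passed in the main fit, so there a value kept its side by staying uncalled. A replicate block on set and experiment, chosen after seeing the data, left 3 residual degrees of freedom and gave 2 genes in siStag3 against siLuc and 86 in siLuc against untreated, with 0 members in any of the 3 treatment comparisons. It put siStag3 against siLuc at 0.02 for Ezh2, 0.07 for Mtf2 and -0.03 for Ring1. The calls of Phf1, Pax6, Stra8, Ddx4 and Taf7l in siLuc, and of Ddx4 in siStag3 against untreated, were not made under the block. Within Set 1, the experiment 3 minus experiment 1 differences of any pair of groups correlated across genes at -0.0439 to -0.0254. The experiments of Set 1 were therefore not taken to pair libraries. In Set 3 the deviations from the group mean correlated at 0.663 between untreated and siStag3, both of experiment 5. Those of siLuc, of experiment 1, correlated with them at 0.561 and 0.496. Without the set covariate 0, 1 and 2 genes passed in siStag3 against siLuc, siLuc against untreated and siStag3 against untreated. With the GC correction 63, 992 and 961 genes passed, with 1 member each in the last 2 (Jarid2 and Eed). Set 1 alone gave 298 genes in siLuc against untreated and 949 genes with 1 member (Mtf2) in siStag3 against untreated. The 6 libraries compared gave 1 gene in siStag3 against siLuc, and 1801 genes with 3 members in siLuc against untreated. The DESeq2 Wald test gave 22 and 1337 genes, with 2 members in the second. Scaling by total count only moved the share of calls that were higher from 39.3% to 21.2% in siLuc against untreated, from 42.4% to 28.1% in siStag3 against untreated and from 50.2% to 61.7% in Set 3 against Set 1.

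Signs that changed were as follows. With the GC correction, siStag3 against siLuc was 0.02 for Ezh2, 0.03 for Mtf2 and -0.06 for Ring1; siLuc against untreated was -0.01 for Mtf2 and 0.10 for Ring1; siStag3 against untreated was 0.05 for Ring1. Set 3 against Set 1 was then -0.08 for Ring1 and 0.06 for Pcgf6, and scaling by total count only gave 0.01 for Pcgf6. In Set 1 alone, siStag3 against siLuc was 0.04 for Ezh2, 0.12 for Mtf2, -0.07 for Ring1 and 0.05 for Rnf2, siLuc against untreated was 0.01 for Ezh1, and siStag3 against untreated was 0.04 for Suz12. The cause was not tested.

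With each library left out in turn, siStag3 against siLuc gave 0 to 4 genes, siLuc against untreated 111 to 2458 genes and 0 to 5 members, siStag3 against untreated 78 to 1591 genes and 0 to 3 members, and Set 3 against Set 1 4162 to 6355 genes and 5 to 7 members. The lowest counts came without the untreated library of Set 3 (111), the siStag3 library of Set 1 experiment 1 (0 and 78), and the highest against untreated cells without the siStag3 library of Set 3 (2458 and 1591). In these fits siStag3 against siLuc ran from -0.07 to 0.04 for Ezh1, -0.07 to 0.03 for Ezh2, -0.03 to 0.05 for Eed, -0.16 to 0.08 for Mtf2, -0.05 to 0.13 for Ring1 and -0.22 to 0.02 for Rnf2. Values of siStag3 against untreated ran from -0.15 to 0.04 for Ring1 and -0.12 to 0.06 for Suz12. A fit with the GC correction and without the siStag3 library of Set 3 was chosen after seeing the data. It gave 17, 1053 and 793 genes in the 3 treatment comparisons, with 1 member (Jarid2) in the second. In Set 3 against Set 1 it called 3 members, while 4232 of the 14428 genes tested were called. That fit put siStag3 against siLuc at 0.03 for Ezh2, 0.05 for Mtf2, -0.04 for Ring1 and 0.02 for Rnf2, and siLuc against untreated at -0.01 for Mtf2 and 0.11 for Ring1. It put siStag3 against untreated at 0.06 for Ring1, and Set 3 against Set 1 at -0.06 for Ring1, 0.01 for Rnf2 and 0.07 for Pcgf6.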
